A study of Mus musculus with 8 samples.

Results

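The receptor-to-nucleus chain of interferon signalling was followed in cultured mouse cardiac fibroblasts, the main matrix-producing cells of heart tissue, after infection with an adenovirus carrying Has2 or one carrying green fluorescent protein (GFP). The chain was represented by 9 genes picked by symbol from the 55414 rows of the count table: the receptor chains Ifnar1, Ifnar2 and Ifngr1, the kinases Jak1 and Tyk2, the signal transducer Stat2, and the interferon regulatory factors Irf9, Irf7 and Irf1. All 9 passed the filter on low counts, which left 15150 genes for testing. Has2 encodes hyaluronan synthase 2, the plasma membrane enzyme that makes the matrix polysaccharide hyaluronan. Each virus had 4 libraries of poly(A) RNA, with replicates 1 and 2 labelled female and replicates 3 and 4 male. In every culture the strain label was C57BL/6J and the genotype label wild type, although the protocol text names Has2 fl/fl mice. Both groups were infected at passage 2 after 24 h without serum, exposed to virus for 5 h, and collected after 48 h in fresh medium containing 20 ng/mL of the growth factors bFGF and TGF-beta. The GFP cultures are therefore infected and growth factor-treated controls, and uninfected cultures were not analysed here. Whether the replicates are separate animals is not stated in the labels, and the p-values cover the spread among these 8 samples only, which may be technical.

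Interferons are secreted proteins that warn neighbouring cells of infection. Type I interferon binds the paired chains IFNAR1 and IFNAR2, which activate the attached kinases TYK2 and JAK1. These phosphorylate STAT proteins, among them STAT2, which together with IRF9 takes part in ISGF3, the complex that enters the nucleus and switches on genes with an interferon-stimulated response element (ISRE). Type II interferon acts through IFNGR1 and IFNGR2 and raises genes with a gamma-activated sequence (GAS), Irf1 among them. The genes of the receptors and of JAK1 and TYK2 are expressed in most cells without a stimulus, and are called constitutive below. Stat2, Irf9, Irf7 and Irf1 are themselves raised by interferon and are called induced. Irf7 encodes a transcription factor that drives interferon genes in a feed-forward loop.

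The sequence just upstream of the start site was read for all 9 genes from RefSeq entries (mouse build GRCm38.p6, 250 bases before each annotated start). ISRE letters were searched as GAAANNGAAA and GAS letters as TTCNNNGAA, on both strands, and the matched motifs did not overlap each other. The ISRE letters occurred in 2.98% and the GAS letters in 7.02% of 32851 such promoters. Among the members, Stat2 held a match to the ISRE letters that began 222 bases before the start, and Irf1 and Ifnar2 held matches to the GAS letters that began 90 and 214 bases before it. No match lay in the windows of Ifnar1, Ifngr1, Jak1, Tyk2 or Irf7, nor in either window of Irf9, which like Irf1 has more than one annotated start. The letters shown are those of the induced members with a match, of the constitutive member with a match, and of Irf7, the member whose level differed most between the viruses. Capitals mark the motif match, read 5′ to 3′ on the strand of the gene.
Stat2 promoter, chr10:128270248-128270497, plus strand: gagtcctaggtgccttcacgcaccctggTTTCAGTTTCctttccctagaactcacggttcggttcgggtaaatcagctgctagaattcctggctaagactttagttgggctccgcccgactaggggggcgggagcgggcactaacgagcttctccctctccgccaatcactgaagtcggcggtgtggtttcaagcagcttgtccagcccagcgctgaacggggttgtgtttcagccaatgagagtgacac
Irf1 promoter, chr11:53769764-53770013, plus strand: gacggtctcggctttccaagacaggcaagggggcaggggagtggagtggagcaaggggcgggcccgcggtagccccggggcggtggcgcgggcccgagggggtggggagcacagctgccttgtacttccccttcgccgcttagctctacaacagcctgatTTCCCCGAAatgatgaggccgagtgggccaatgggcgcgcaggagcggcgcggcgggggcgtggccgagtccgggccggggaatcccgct
Ifnar2 promoter, chr16:91372533-91372782, plus strand: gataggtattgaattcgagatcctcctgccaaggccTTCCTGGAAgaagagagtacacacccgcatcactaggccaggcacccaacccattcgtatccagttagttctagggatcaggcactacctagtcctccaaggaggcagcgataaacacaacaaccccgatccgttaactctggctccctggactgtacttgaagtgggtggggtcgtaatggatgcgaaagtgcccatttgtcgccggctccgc
Irf7 promoter, chr7:141266425-141266674, minus strand: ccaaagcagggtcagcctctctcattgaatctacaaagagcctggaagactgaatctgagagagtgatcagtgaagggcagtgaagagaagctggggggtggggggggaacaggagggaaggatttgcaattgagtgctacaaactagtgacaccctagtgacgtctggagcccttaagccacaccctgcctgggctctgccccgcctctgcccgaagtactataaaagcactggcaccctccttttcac
The ISRE letters in Stat2 lay on the strand opposite to the gene. A match is a description of the sequence, and binding was not measured.

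Library totals ran from 46981231 to 55795187 counts. The targeted gene Has2 stood at 7.36 to 25.2 CPM (read counts scaled by the effective size of the library) in the 4 GFP libraries and at 3209 to 9533 CPM in the 4 Has2 libraries. All 10 fibroblast markers passed the filter and summed to 25525 to 39738 CPM per library. Macrophage markers (14 of 14 passed) summed to 1036 to 2532 CPM with the GFP virus and 968 to 2715 CPM with the Has2 virus. Endothelial markers (7 of 7 passed) reached at most 46.7 CPM, mural cell markers (6 of 6) 97.2 CPM and cardiomyocyte markers (2 of 7) 9.15 CPM. Genes listed for lymphoid and plasmacytoid cells (1 of 8) reached at most 3.64 CPM, with Nkg7 and Siglech at 0 in every library. Most of that sum was Bst1, the gene that passed, at 2.15 to 3.59 CPM. Whether it came from such cells was not tested. Liver-type markers (4 of 8 passed) summed to 964 CPM in GFP replicate 1 and to 110 to 225 CPM in the other 7 libraries. Nearly all of the sum in those 7 libraries was Trf, which ranged from 107 to 222 CPM there. Alb, Ahsg and Apoa2 reached no more than 0.648, 1.81 and 1.51 CPM in them. The higher sum of GFP replicate 1 included 450 CPM of Alb and 246 CPM of Trf. Whether Trf came from liver-type cells was not tested.

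Before the viruses were compared, the members were ordered by level, expressed as CPM per kilobase of the longest annotated transcript. The order and the ratios between genes depend on that length, which may not be that of the main transcript. Other lengths were not tried. With the GFP virus Jak1, the kinase shared by both interferon receptors, had the highest mean on this measure, 70.4 ± 7.34 CPM per kb (SD, n = 4). Irf7 followed at 63.5 ± 14.2, a level whose libraries overlapped those of Jak1. The type II receptor chain Ifngr1 was at 45.6 ± 4.92, below every Irf7 library. The type I receptor chains lay lower, Ifnar2 at 27.6 ± 4.34 and Ifnar1 at 21.5 ± 1.30 CPM per kb. Stat2 was at 26.0 ± 4.15, Irf9 at 21.2 ± 2.20 and Irf1 at 18.9 ± 7.84. From Ifnar2 down to Irf1 each neighbour in this order overlapped the next. Tyk2, the kinase that pairs with IFNAR1, stood apart at 4.5 ± 0.605 CPM per kb, below every library of every other member. The Jak1 level per kb was 12.6 to 19.5 times that of Tyk2 in the GFP libraries and 10.7 to 21.6 times in the Has2 libraries.

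**Figure D1:**
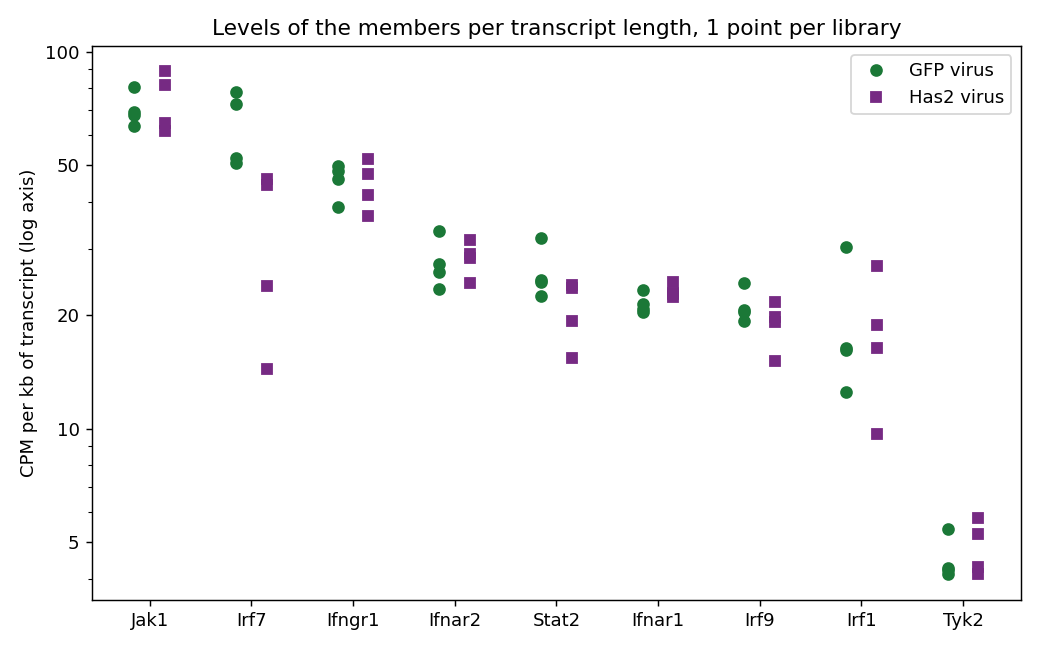
Level of each member in CPM per kb of transcript (log axis), with green circles for the 4 GFP libraries and purple squares for the 4 Has2 libraries. Jak1 and Irf7 lead with the GFP virus and Tyk2 is lowest, while the Has2 libraries of Irf7 spread from 14.4 to 46.0 CPM per kb.

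With the Has2 virus the order of the means differed in the places of Irf7, now below Ifngr1, and of Stat2, now below Ifnar1. Irf7 stood at 32.2 ± 15.6 CPM per kb (SD, n = 4), under every Jak1 library and overlapping those of Ifngr1 (44.5 ± 6.79). The libraries of Stat2 and Ifnar1 overlapped with either virus. The other members stood at 74.3 ± 13.1 for Jak1, 28.4 ± 3.09 for Ifnar2, 23.1 ± 0.933 for Ifnar1, 20.6 ± 4.09 for Stat2, 18.9 ± 2.75 for Irf9, 18 ± 7.17 for Irf1 and 4.85 ± 0.793 for Tyk2.

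Irf7 was the member with the lowest level under the Has2 virus relative to GFP. Irf7 (ENSMUSG00000025498) was at 164, 236, 169 and 254 CPM in GFP replicates 1, 2, 3 and 4, and at 46.6, 77.6, 144 and 149 CPM in the Has2 libraries of the same numbers. Every Has2 library lay below every GFP library, a separation in this direction that 1.51% of all genes tested showed. The female Has2 libraries were the lowest of the 8, while the highest Has2 library (149 CPM) was close to the lowest GFP library (164 CPM). The means were 206 ± 46.2 and 104 ± 50.5 CPM (SD, n = 4). In the fit with the replicate number as a block, the log2 fold change was -1.10 (SE 0.27; 95% interval -1.74 to -0.47), a level of 0.465 times that with GFP (95% interval 0.300 to 0.721). An exact two-sided permutation test of the 4 against 4 log2 CPM values gave p = 0.0286, and the paired exact test p = 0.125, each the smallest it can give.

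Irf7 did not pass the adjustment over all genes in the main test. Its edgeR p was 0.00455 unadjusted, and the adjusted p = 0.648 (0.0176 to 1 over the alternatives). Among those alternatives, Irf7 passed with DESeq2 and the replicate block, at an adjusted p = 0.0176. That test called 0.403% of all genes in either direction and 0.323% as lower. Without the block the log2 fold change of Irf7 was -0.98 (SE 0.35; edgeR adjusted p = 1). In bulk RNA, fewer cells of a type and less RNA per cell cannot be told apart. Macrophages also express Irf7, and the summed macrophage markers went from 2532 to 2390 CPM in pair 1, from 1036 to 968 in pair 2, from 1847 to 2084 in pair 3 and from 2339 to 2715 in pair 4. The sum was thus lower with the Has2 virus in the female pairs and higher in the male pairs, and Irf7 was lower in all 4. Single markers went both ways, 7 of the 14 with a negative and 7 with a positive log2 fold change. In pairs 3 and 4 the log2 ratios were -1.09 and -1.05 for Ptprc, and 0.25 and 0.35 for Cd68. For 9 of the 14 macrophage markers edgeR with the block called a difference in virus effect between the sexes, against 29.5% of all genes. With the trend of GC content and length removed this count was 1 of 14, against 10.2% of all genes. Without the block 0 genes were called (13.3% of all genes at an unadjusted p under 0.05). The part of these markers in the result was not tested. Without GFP replicate 1, the library with liver-type transcripts, the log2 fold change of Irf7 in the fit without the block was -1.05. Its smallest size was -0.71, without Has2 replicate 1 and the block, and its largest -1.40, without pair 3.

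**Figure D2:**
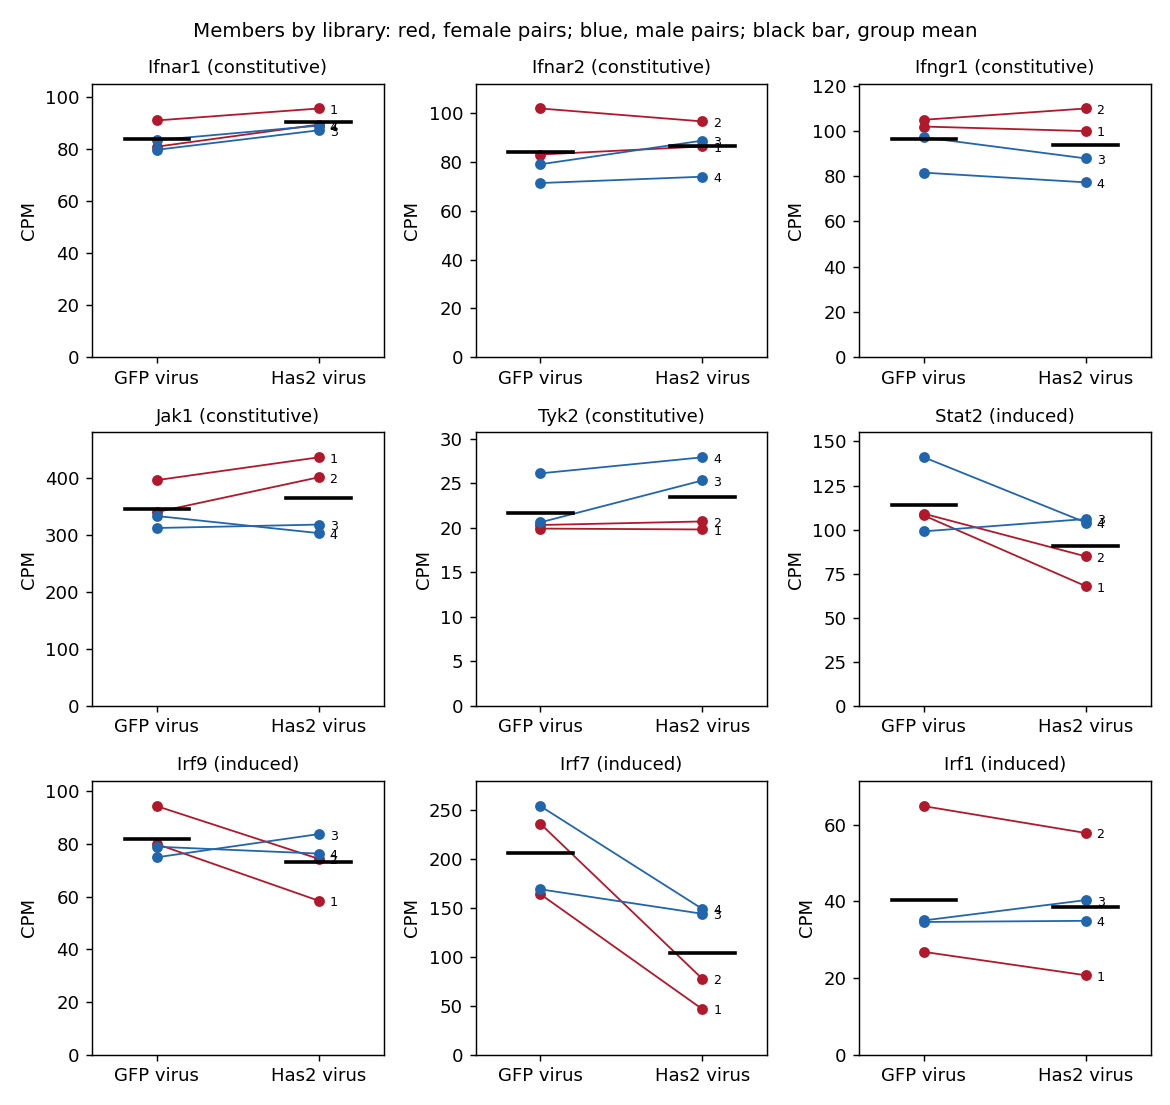
CPM of each member (vertical axis, from 0) with the GFP and the Has2 virus, with lines joining the libraries of the same replicate number, red for female and blue for male pairs, and black bars for group means. All 4 lines fall for Irf7, from 164 to 254 CPM down to 46.6 to 149 CPM, while the lines of the receptors and kinases stay nearly level.

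The components of ISGF3 differed less. Stat2 (ENSMUSG00000040033), which carries the transactivation domain of the complex, was at 108, 109, 99.0 and 141 CPM in GFP replicates 1 to 4 and at 67.9, 84.8, 106 and 104 CPM in the Has2 libraries. It was lower in pairs 1, 2 and 4 and slightly higher in pair 3, and the groups overlapped. In edgeR this came to a log2 fold change of -0.34 (SE 0.13; 95% interval -0.66 to -0.02) and an adjusted p = 0.648. Stat2 was among the 4.91% of genes that were lower at an unadjusted p under 0.05 (0.0397 by edgeR, before adjustment). Irf9 (ENSMUSG00000002325), the DNA-binding subunit, was at 79.9, 94.3, 74.9 and 78.9 CPM with the GFP virus and at 58.4, 74.3, 83.7 and 76.3 CPM with the Has2 virus. It was lower in both female pairs and near the GFP level in the male pairs. edgeR gave a log2 fold change of -0.17, with an SE of 0.13, a 95% interval of -0.47 to 0.13 and an adjusted p = 0.697. The ratio of Stat2 to Irf9 per kb was 1.02 to 1.57 in the GFP and 1.00 to 1.2 in the Has2 libraries, ranges that overlapped.

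Irf1, the factor that interferon gamma induces through its GAS element, varied more between cultures than between viruses. Irf1 (ENSMUSG00000018899) was at 26.8, 64.8, 35.0 and 34.6 CPM in GFP replicates 1 to 4 and at 20.7, 57.8, 40.3 and 34.9 CPM in the Has2 libraries. Replicate 2 was the highest and replicate 1 the lowest with either virus, and the mean of pair 2 was 2.59 times that of pair 1. Within pairs the log2 ratio ran only from -0.37 to 0.20. Over the 4 pairs edgeR put the log2 fold change at -0.08, with an SE of 0.12, a 95% interval of -0.37 to 0.21 and an adjusted p = 0.859. Replicate 2 also had the lowest summed macrophage markers in both groups, and their part in the level of Irf1 was not tested.

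The receptor chains showed intervals close to no difference. Ifnar1 (ENSMUSG00000022967) was at 91.1, 81.0, 79.8 and 83.5 CPM with the GFP virus and at 95.7, 89.5, 87.3 and 89.1 CPM with the Has2 virus. It was slightly higher in all 4 pairs, as were 9.16% of all genes tested, with a log2 fold change of 0.11 (SE 0.08; 95% interval -0.09 to 0.31). Ifnar1 was also the steadiest member, with the highest GFP library 1.14 times the lowest. Ifnar2 (ENSMUSG00000022971), the chain that binds JAK1, was at 83.1, 102, 79.1 and 71.4 CPM and at 86.4, 96.7, 88.8 and 74.0 CPM, a log2 fold change of 0.05 (SE 0.09; 95% interval -0.17 to 0.26). In both groups replicate 2 was highest and replicate 4 lowest for Ifnar2, and the groups overlapped. Ifngr1 (ENSMUSG00000020009), the ligand-binding chain for interferon gamma, was at 102, 105, 97.2 and 81.6 CPM and at 100, 110, 87.9 and 77.3 CPM, a log2 fold change of -0.04 (SE 0.09; 95% interval -0.25 to 0.17). The male Has2 libraries were the lower ones for Ifngr1, and the groups overlapped. The edgeR adjusted p-values of the receptor chains were 0.703 to 0.903.

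The kinases were likewise close to their GFP levels. Jak1 (ENSMUSG00000028530) was at 396, 340, 312 and 333 CPM with the GFP virus and at 436, 401, 318 and 303 CPM with the Has2 virus. It was higher in pairs 1 to 3 and lower in pair 4 (log2 fold change 0.07, SE 0.10; 95% interval -0.16 to 0.30; edgeR adjusted p = 0.848). Tyk2 (ENSMUSG00000032175) was at 19.9, 20.3, 20.6 and 26.1 CPM and at 19.8, 20.7, 25.3 and 27.9 CPM (log2 fold change 0.10, SE 0.10; 95% interval -0.14 to 0.34; edgeR adjusted p = 0.766). Its highest libraries were male with either virus. For each of the 5 constitutive genes the 95% interval lay between 0.840 and 1.27 times the GFP level, which is the size of change these libraries leave room for.

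**Figure D3:**
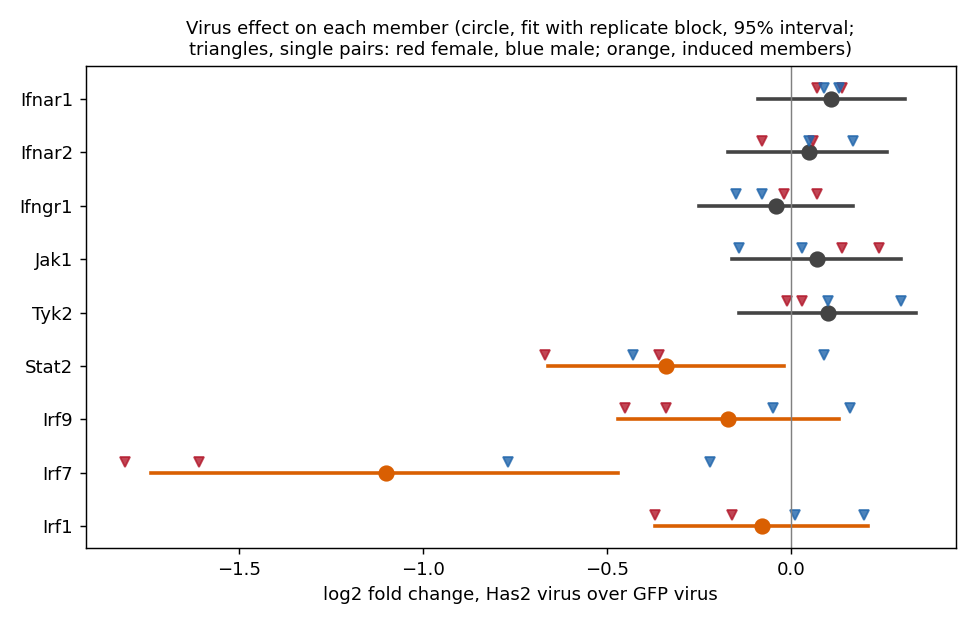
Log2 fold change of each member (horizontal axis, Has2 virus over GFP virus), with circles and bars for the fit with replicate block and its 95% interval, and triangles for the single pairs (red female, blue male). The intervals of Irf7 and Stat2 lie below 0, those of the other 7 members span it, and the female triangles of Irf7 are at -1.81 and -1.61.

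Set side by side, all 4 induced members had a negative log2 fold change, as had 54.8% of all genes, and 4 of the 5 constitutive members a positive one. The median was -0.26 for the induced and 0.07 for the constitutive members, against -0.02 for all 15150 genes tested. The induced median rested on few genes, since Irf7 was at -1.10 and Irf1 at -0.08. By pair, the induced median was -0.56, -0.35, 0.13 and -0.24 in replicates 1, 2, 3 and 4, and the constitutive median 0.06, 0.07, 0.13 and 0.05. The induced median was thus the lower one in pairs 1, 2 and 4 and equal to the constitutive one in pair 3. Single members crossed: in pair 4 Irf1 (0.01) and Irf9 (-0.05) were above Ifngr1 (-0.08) and Jak1 (-0.14), and in pair 3 Irf7 (-0.22) was below every constitutive member. None of the 9 members passed edgeR's quasi-likelihood test with the replicate block, where 0.0066% of all genes passed (Has2 alone). At an unadjusted p under 0.05 there were 2 (Irf7 and Stat2), with 7.49% of all genes at that threshold. DESeq2 with the block called 1 (Irf7), DESeq2 without it 0 and limma-voom with the block 0. No test of the induced against the constitutive members was made, because they were chosen with earlier results known.

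Ratios between members within a library do not depend on the scaling of libraries. The ratio of Irf7 to Irf9 per kb was 2.44 to 3.84 with the GFP virus and 0.954 to 2.33 with the Has2 virus, so the groups did not overlap. The ratio of Irf7 to Ifnar1 was 2.17 to 3.67 and 0.588 to 2.02, again without overlap. The CPM of Irf7 alone already separated the groups, as did 1.51% of all genes in this direction. These 2 ratios are therefore no separate evidence, and how often other ratios separate was not counted. The ratio of Irf7 to Irf1 was 2.41 to 4.84 and 0.885 to 2.82, and that of Irf7 to Jak1 0.626 to 1.15 and 0.162 to 0.744, both with overlap. Has2 replicate 1 had the lowest ratio to Irf9, Jak1 and Ifnar1.

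Since sex is given for every culture, the virus effect was compared between the 2 female and the 2 male pairs in a fit with the replicate block and a sex by virus term. Irf7 was at a log2 fold change of -1.71 (SE 0.13) in the female pairs and -0.50 (SE 0.12) in the male pairs. The difference, male minus female, was 1.21 (SE 0.17; edgeR adjusted p = 0.000502). Irf9 was at -0.40 in females and 0.06 in males, a difference of 0.45 (SE 0.12; edgeR adjusted p = 0.0197). Irf1 was at -0.26 and 0.11 (difference 0.37, edgeR adjusted p = 0.059) and Stat2 at -0.51 and -0.17 (difference 0.35, edgeR adjusted p = 0.167). The 5 constitutive members had differences of -0.24 to 0.19 and edgeR adjusted p-values of 0.187 to 0.982. The same test called 29.5% of all genes (11.5% with a higher value in males), so the 2 of 9 members called are a share near the background.

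Several measures moved together with this difference. With the trend of transcript GC content and length removed from every library, the share of genes called fell to 10.2%, the difference of Irf7 was 0.94 (edgeR adjusted p = 0.00912) that of Irf9 0.36 (edgeR adjusted p = 0.0554) and that of Irf1 0.07 (edgeR adjusted p = 0.791). The members' transcripts have a GC content of 47.6% (Jak1) to 57.0% (Tyk2), with Irf7 at 55.4%. When edgeR was run without the replicate block, 0 genes had a called interaction (13.3% were at an unadjusted p under 0.05, and DESeq2 with the block called 3589), and Irf7 had an edgeR adjusted p = 0.297. Has2 itself was higher in the female Has2 libraries (9533 and 8406 CPM) than in the male ones (3209 and 4860 CPM). By Has2 level with the Has2 virus the pairs ran in the order 1, 2, 4, 3, as they did by the size of the Irf7 difference. By the log2 ratio of Has2 within pairs (8.56, 10.15, 7.45 and 7.83 in pairs 1, 2, 3 and 4) the order was 2, 1, 4, 3, which is not that of Irf7. The prefixes of the library names, whose meaning is not stated there, also differ in their first letter between the sexes. Sex, name prefix and Has2 level cannot be told apart with these 4 pairs.

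The interferon genes themselves were almost absent from the counts. Of 20 ligand genes 15 were at 0 in every library, and none passed the filter. Ifnb1, the type I interferon of fibroblasts, had 1 and 3 counts in GFP replicates 1 and 2, 1 count each in Has2 replicates 3 and 4, and 0 elsewhere. Ifng had 2 counts in Has2 replicate 1 and 0 in the other libraries. Ifna2, Ifna4 and Ifnab had 1 count each in a single library. A count of 0 allows up to 3 counts, or 0.0539 to 0.0657 CPM in the single libraries, for counting error only. The Ifna genes are near-identical copies, and reads shared between copies may not have been counted, so no difference in a ligand was detectable at this depth.

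Other receptors, kinases, STATs and IRFs of the pathway were measured as fixed lists. Of 6 further receptor chains and kinases 0 passed the edgeR test (0 also at an unadjusted p under 0.05), with a median log2 fold change of 0.04. Jak2, the kinase of IFNGR2, was at 72.1 ± 14.1 and 56.0 ± 26.4 CPM (SD, n = 4), with log2 ratios of 0.07, 0.24, -0.96 and -1.18 in pairs 1, 2, 3 and 4. Ifngr2 had a log2 fold change of 0.03 (SE 0.11), Jak3 0.08 (SE 0.12) and the gp130 receptor Il6st 0.20 (SE 0.15). Of 12 other STAT and IRF genes counted here 0 passed the edgeR test, and 0 were at an unadjusted p under 0.05 in edgeR, DESeq2 or limma-voom, all with the block. Irf2, which competes with IRF1 for its sites, was at 0.20 (SE 0.11), Stat5a at 0.17 (SE 0.13), Stat6 at 0.12 (SE 0.10) and the IRF2-binding protein gene Irf2bp2 at -0.10 (SE 0.09), with a median of 0.06 over the 12 genes.

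Regulators of the pathway were mixed. Of 13 negative regulators 0 passed the edgeR test and 1 was at an unadjusted p under 0.05 (7.49% of all genes). Their median log2 fold change was -0.02. Usp18, an interferon-induced protein that displaces JAK1 from IFNAR2, was at 64.9 ± 8.52 and 40.4 ± 19.7 CPM (SD, n = 4), with log2 ratios of -1.54, -1.19, 0.02 and -0.53 in pairs 1, 2, 3 and 4. The phosphatase Ptpn1 was at a log2 fold change of 0.23 (SE 0.10), the JAK inhibitor Socs3 at 0.17 (SE 0.09) and the phosphatase Ptpn2 at -0.37 (SE 0.21). Of 12 adaptors and kinases that activate IRF3 and IRF7 0 passed and 1 was at an unadjusted p under 0.05 (7.49% of all genes). Their median was -0.01. Azi2 was at -0.34 (SE 0.13), the IRF kinase Tbk1 at -0.23 (SE 0.14), Irak1 at 0.20 (SE 0.09) and the adaptor Ticam1 at 0.17 (SE 0.10). DESeq2 and limma-voom, both with the block, called 0 genes of these 4 lists.

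Known targets at the end of the chain had lower levels with the Has2 virus. Of 20 ISGF3 target genes, chosen with earlier results known and so no independent evidence, 20 had a negative log2 fold change (54.8% of all genes). In all 4 pairs 17 of them were lower, against 7.96% of all genes. The median was -0.86. edgeR called 0 of them (20 at an unadjusted p under 0.05, with 7.49% of all genes). DESeq2 with the block called 10 (0.403% of all genes), DESeq2 without it 4 (7 of 15125 genes) and limma-voom 0. Ifi44 was at 86.8 ± 23.0 and 35.7 ± 5.32 CPM (SD, n = 4; log2 fold change -1.26, SE 0.13), Ifit3b at -1.10 (SE 0.13), Ifit1 at -0.94 (SE 0.14) and Rtp4 at -0.79 (SE 0.12). Of 17 tested targets of GAS and IRF1 17 had a negative log2 fold change (54.8% of all genes) and 10 were lower in all 4 pairs (7.96%). Their median was -0.49. edgeR called 0 of them (12 at an unadjusted p under 0.05, with 7.49% of all genes). DESeq2 with the block called 3 (0.403% of all genes), DESeq2 without it 1 (7 of 15125 genes) and limma-voom 0. The GTPase genes Gbp3 and Iigp1 were at -1.11 (SE 0.12) and -1.39 (SE 0.22), Irgm1 at -0.50 (SE 0.10) and the cytokine Il15 at -0.43 (SE 0.12). Split by sex, female first, the medians were -1.07 and -0.64 for the ISGF3 targets and -0.63 and -0.36 for the GAS and IRF1 targets, lower in females as for Irf7 (-1.71 and -0.50). Among the named targets, Ifit1 (-1.14 and -0.75), Rtp4 (-1.01 and -0.57), Ifit3b (-1.18 and -1.02) and Irgm1 (-0.63 and -0.37) had the lower value in females. Ifi44 (-1.08 and -1.44), Gbp3 (-0.97 and -1.25) and Iigp1 (-0.91 and -1.88) had it in males, and Il15 was at -0.42 and -0.43. Of these the sex difference passed the edgeR test for Rtp4 and Iigp1 with the replicate block. With the trend in GC and length removed it passed for Ifit1 and Irgm1 in their place. The difference, male minus female, then turned positive for Ifi44 (0.45) and was -0.13 for Gbp3 and -0.15 for Iigp1. It stayed positive for Ifit1 (0.82), Rtp4 (0.26), Ifit3b (0.26) and Irgm1 (0.52). Ifit3b and Gbp3 belong to families of similar genes, so their counts are uncertain where reads were shared.

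**Figure D4:**
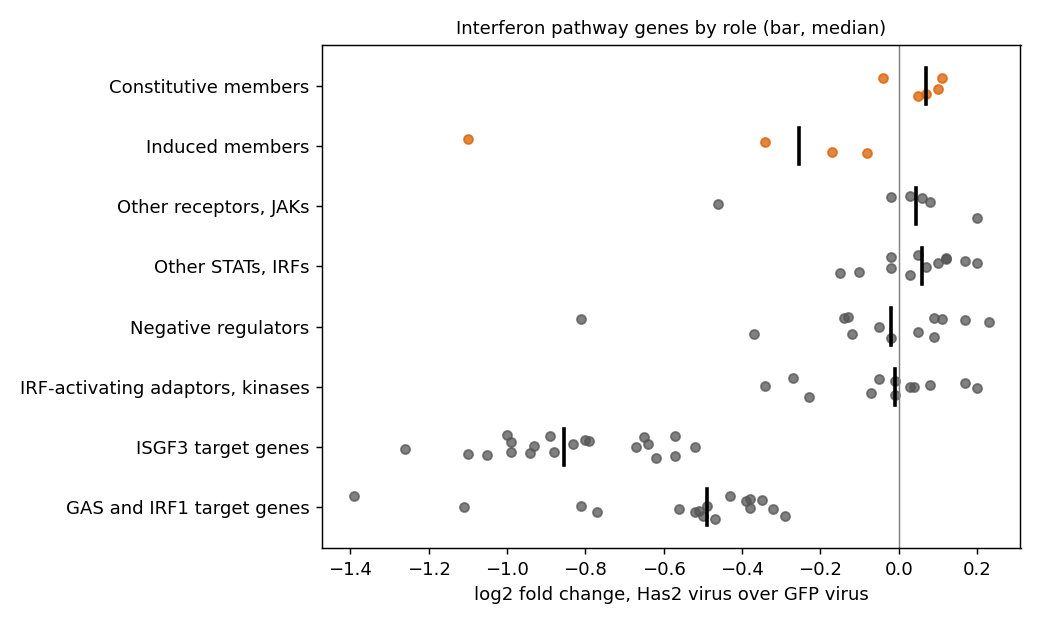
Log2 fold change (horizontal axis, Has2 virus over GFP virus) of each tested gene, in rows by role, with the members in orange and a black bar at each median. The medians of the regulatory rows lie near 0 (from -0.02 to 0.06), that of the induced members at -0.26, and those of the target rows at -0.86 and -0.49.

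Finally, the genes whose 4 pair ratios were closest to the mean of the induced members (-0.83, -0.62, 0.06 and -0.31 in pairs 1, 2, 3 and 4) were sought among 10295 genes with at least 5 CPM. That mean was drawn down by Irf7 (-1.81, -1.61, -0.22 and -0.77), and the induced medians were -0.56, -0.35, 0.13 and -0.24. Likeness to the mean is thus not likeness to each induced member. It was taken as the root mean square difference over the 4 pairs. The closest was Uba7, the activating enzyme for ISG15, at 0.04 log2 units, with ratios of -0.87, -0.58, 0.02 and -0.29. Tap1, a peptide transporter chain, the class I heavy chain H2-D1 and the ADP-ribosyltransferase Parp10 followed at 0.10, and the GTPase gene Gbp2 and the peptide-loading chaperone Tapbp at 0.11. Their log2 fold changes were -0.43 (SE 0.16) for Uba7, -0.39 (SE 0.16) for Tap1, -0.41 (SE 0.15) for H2-D1, -0.38 (SE 0.16) for Parp10, -0.35 (SE 0.15) for Gbp2 and -0.38 (SE 0.13) for Tapbp. H2-D1 has close copies among the class I genes, which makes its counts uncertain. All 6 had overlapping groups and an edgeR adjusted p = 0.648.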

How the data were processed

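Poly(A) RNA of 8 libraries, 4 per virus, was sequenced from strand-marking libraries, per the labels' protocols. What the authors deposited is a table of unnormalized read counts by Ensembl identifier. Reads were checked with FastQC 0.10.1 and counted with HTSeq 0.10.0 on mm39 (GRCm39), per the submitters' processing notes. Which aligner, annotation version and strand option were used is not given in the sources used here, so reads of overlapping or near-identical genes may be divided in an unknown way. Symbols were matched by identifier to GENCODE M21 (52081 of 55414 identifiers), which also gave transcript length and GC content. RefSeq promoter entries matched 9 of 9 members.

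Virus groups were compared in R 4.3.3 by quasi-likelihood F-tests of edgeR 4.0.16, on TMM-scaled counts past filterByExpr, with the replicate number as a block. P-values were adjusted over all 15150 genes by Benjamini-Hochberg and called under 0.05. Replicate numbers come from the sample titles, and both libraries of a number carry the same prefix in the library name. What the prefix stands for is not stated in the library names. Deviations from group means correlated within pairs 1 to 4 at 0.576, 0.622, 0.527 and 0.437. Without the block the median SE of a log2 fold change was 0.227, with it 0.144. Pair ratios used log2 CPM with a prior count of 2. No 2 libraries of a group agreed within sampling noise. Alternatives were no block, other scalings and filters, DESeq2 1.42.0, limma-voom (limma 3.58.1), offsets that remove a trend in GC and length (splines with 5 degrees of freedom), a threshold of 0.01, and leaving out pairs or libraries. The tests were tried on simulated counts.

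The members and lists were chosen with earlier results of these data known. The list of other STAT and IRF genes leaves out 1 gene, which is not reported here, so its counts and median describe only the genes counted. Named were all members, up to 4 genes of smallest p per list, and the 6 genes most like the mean of the induced members.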

Additional observations from a re-analysis of the deposited data

Results flagged for a closer look

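Among 39 named genes, the virus effect differed between male and female pairs for 15 (edgeR adjusted p under 0.05, replicate block), with 29.5% of all genes called by the same test. Of the 15, 6 (Uba7, Tap1, H2-D1, Parp10, Gbp2 and Tapbp) were named for pair ratios like the mean of the induced members. That pattern is lower in females, so their calls are not independent of that choice. The difference, male minus female, was 1.21 for Irf7 and 0.45 for Irf9. It was also positive for Usp18 (1.12), Rtp4 (0.45), Uba7 (0.59), Tap1 (0.52), H2-D1 (0.61), Parp10 (0.62), Gbp2 (0.49) and Tapbp (0.50), whose female values were the lower ones. It was negative for Jak2 (-1.22), Ptpn2 (-0.91), Azi2 (-0.47), Tbk1 (-0.53) and Iigp1 (-0.97). With the GC and length trend removed, Irf7 (0.94), Jak2 (-0.67) and Usp18 (0.83) were still called and the other 12 were not (edgeR adjusted p = 0.0554 to 0.845), with Ptpn2 at -0.16, Azi2 at 0.05 and Iigp1 at -0.15. Without the replicate block 0 of the 15 were called (edgeR adjusted p = 0.164 to 0.604).

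In 5 of 78 groups of libraries a single library stood far from the other 3, and chance gives about 1 in 20. The gap of that library took 0.896 of the range for Tyk2 with the GFP virus, where replicate 4 was at 26.1 CPM and the others at 19.9 to 20.6 CPM. It took 0.906 of the range for Ptpn2 and 0.919 for Tap1 with the GFP virus, and 0.881 for Tbk1 and 0.846 for Irf2bp2 with the Has2 virus.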

How the results depend on the processing

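Irf7, Stat2 and Irf9 stayed negative in all 22 alternatives each, at -1.40 to -0.71, -0.49 to -0.18 and -0.28 to -0.05, and Ifnar1 and Tyk2 at or above 0 (0.07 to 0.17 and 0.00 to 0.24). Without the replicate block, Irf7 was at -0.98, its DESeq2 call was lost, and so were the edgeR calls of the interaction of Irf7 (1.16) and Irf9 (0.45). The block changed no other call of a member in edgeR or in the virus comparison of DESeq2. Without the block and single libraries, signs turned for Ifnar2 (-0.02 without Has2 replicate 2) and Jak1 (0.00 without Has2 replicate 1). They also turned for Ifngr1 (0.02, 0.01 and 0.05 without GFP replicates 1 and 2 and Has2 replicate 4) and Irf1 (0.26 and 0.16 without GFP replicate 2 and Has2 replicate 1). With the block, Irf1 turned without replicate 1 (0.05) and kept its sign without replicate 3 (-0.17). Once the trend in GC and length was removed, the interactions of Ifnar1 and Ifnar2 were -0.08 and -0.04, that of Irf9 lost its call, and the constitutive median was 0.02. Leaving out libraries or pairs gave constitutive medians of 0.03 to 0.13 (0.11 without Has2 replicate 4, and 0.04 without replicate 3 in the fit with the block) and induced medians of -0.38 to -0.12. The virus comparison called 1 gene (0 to 1 when libraries or pairs were left out; 0 without replicate 1), 0 with library totals or at an adjusted p under 0.01, 2 with the trend removed, 118 without a filter on low counts, and 61 and 7 in DESeq2 with and without the replicate block. The interaction called 4470 genes, 0 without the block and 1550 with the trend removed. The cause of these shifts was not tested.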
